A study of Mus musculus with 20 samples.

Results

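The genes described here are 32 myeloid lineage genes, taken by their mm10 symbols and placed on 21631 protein-coding genes of chromosomes 1 to 19 and X. They fall into 14 genes of granule and secreted proteins of neutrophils and monocytes (called granule genes below), 12 genes of surface receptors, and 6 other genes used as markers of monocytes and macrophages. A gene was counted in a library when a deposited peak overlapped the gene body or the 1 kb beyond either of its ends by at least 1 bp. Peaks within 1 kb of an end were also counted apart from those further inside. Where a library had several peaks at a gene, its ATAC-seq score is the highest of them unless a place is named. Scores of a gene may thus come from different places in different libraries.

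The cells were hematopoietic stem cells (HSC), sorted from poly(I:C)-treated adult mice. Controls, called WT here, were Mx1-Cre-/-;mTORflox/flox, the knockout (KO) was Mx1-Cre+/-;mTORflox/flox, and the KO MycHet mice were Mx1-Cre+/-;mTORflox/flox;c-Myc+/flox. All 3 genotypes thus carried floxed Mtor alleles and received poly(I:C), and there was no group with the c-Myc allele and intact Mtor. ChIP-seq of H3K27ac (acetylated histone H3 lysine 27, found at active promoters and enhancers), of H3K4me3 (trimethylated histone H3 lysine 4, found at promoters) and of the transcription factor MYC had 1 library per target in WT and in KO. Open chromatin was mapped by ATAC-seq in 2 libraries of each of the 3 genotypes. The Mx1 promoter that drives Cre answers to interferon and is active in many cell types, so deletion is not limited to HSC. The number of animals behind a library is not given in the sources used here, and the 8 RNA-seq samples were not analysed here.

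Myeloid cells arise from HSC through progenitors in which PU.1 (encoded by Spi1) and the C/EBP factors open and activate their target genes. Primary granule proteases and myeloperoxidase are made first, at the promyelocyte stage, and secondary granule proteins later, as neutrophils mature. Receptors for colony-stimulating factors act earlier and instruct progenitors to survive and to take a lineage. mTOR is the kinase that couples growth factors and nutrients to protein synthesis, and MYC is a transcription factor that drives growth genes.

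The sequences just upstream of 6 start sites are shown because these genes span the range seen at granule and receptor promoters: Mpo and Fcgr1 had open chromatin over the sequence in 4 ATAC-seq libraries that cover all 3 genotypes, S100a8 in WT and KO, Elane in 1 KO library, and Ngp and Retnlg in no library. Each runs 5' to 3' along the gene and covers the 250 bases before the RefSeq start site on GRCm38.p6 (the assembly of mm10). Capitals mark matches, on either strand, to GAGGAA (a PU.1 core) or TTGCNNAA (a C/EBP pattern). The positions are chr11:87793534-87793783, plus strand, for Mpo; chr10:79886062-79886311, plus strand, for Elane; chr3:90668821-90669070, plus strand, for S100a8. Those of the other 3 are chr9:110419558-110419807, plus strand, for Ngp; chr16:48872358-48872607, plus strand, for Retnlg; chr3:96293970-96294219, minus strand, for Fcgr1. No other protein-coding gene overlapped any of these 6 windows.
Mpo: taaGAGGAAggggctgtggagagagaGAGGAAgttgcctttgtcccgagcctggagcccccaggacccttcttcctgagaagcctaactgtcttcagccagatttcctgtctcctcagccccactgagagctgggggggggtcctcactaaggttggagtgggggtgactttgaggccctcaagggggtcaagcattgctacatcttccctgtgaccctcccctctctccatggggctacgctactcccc
Elane: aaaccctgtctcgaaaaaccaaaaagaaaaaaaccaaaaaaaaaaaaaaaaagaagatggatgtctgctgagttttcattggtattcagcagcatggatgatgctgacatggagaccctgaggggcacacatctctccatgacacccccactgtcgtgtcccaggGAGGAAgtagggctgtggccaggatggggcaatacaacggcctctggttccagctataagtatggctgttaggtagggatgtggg
S100a8: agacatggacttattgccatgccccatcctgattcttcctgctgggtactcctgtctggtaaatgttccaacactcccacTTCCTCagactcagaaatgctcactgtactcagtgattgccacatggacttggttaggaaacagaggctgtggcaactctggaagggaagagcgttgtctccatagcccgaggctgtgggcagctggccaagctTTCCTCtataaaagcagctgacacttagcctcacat
Fcgr1: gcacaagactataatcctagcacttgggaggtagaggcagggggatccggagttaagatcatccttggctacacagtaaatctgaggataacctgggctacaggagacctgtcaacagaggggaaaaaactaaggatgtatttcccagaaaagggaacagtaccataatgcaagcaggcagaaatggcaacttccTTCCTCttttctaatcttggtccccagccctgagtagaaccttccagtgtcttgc
Ngp: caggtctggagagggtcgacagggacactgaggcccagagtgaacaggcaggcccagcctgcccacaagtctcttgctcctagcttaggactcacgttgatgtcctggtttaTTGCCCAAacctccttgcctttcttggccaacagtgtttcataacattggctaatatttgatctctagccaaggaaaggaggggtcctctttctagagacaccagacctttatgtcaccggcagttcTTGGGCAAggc
Retnlg: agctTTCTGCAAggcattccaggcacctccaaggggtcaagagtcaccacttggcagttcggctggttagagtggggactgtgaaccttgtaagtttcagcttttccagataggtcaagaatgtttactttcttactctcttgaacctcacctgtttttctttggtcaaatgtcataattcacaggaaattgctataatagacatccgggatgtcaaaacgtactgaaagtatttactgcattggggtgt

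Mpo and S100a8 each held the PU.1 letters 2 times, Elane and Fcgr1 held them 1 time, and Ngp and Retnlg held none of them and the C/EBP letters 2 times and 1 time. The search was extended to the same window, the 250 bases before the RefSeq start site, of 17274 protein-coding genes, 27 of them members. GAGGAA was found in 14 of the 27 members (7 of 13 granule genes) and in 22.3% of all windows. TTGCNNAA was found in 7 of 27, namely the granule genes Ltf, Ngp, Mmp8, Retnlg and S100a9 and also Fcgr3 and Cd68, against 9.22% of all windows. TGTGGT, a RUNX pattern, was in 6 of 27 against 12.3%, and CACGTG, the E-box letters that MYC can bind, was in 1 of 27 (Klf4) against 6.72%. None of the 4 patterns contains another, and a match describes the letters in the window, not a bound site.

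The 12 peak lists differed much in length, from 8774 peaks for MYC in WT to 72149 for ATAC-seq in KO library 2, and every count below is read beside the share of all protein-coding genes counted the same way. WT and KO lists held 10078 and 20036 peaks for H3K27ac, 15089 and 16019 for H3K4me3, and 8774 and 22086 for MYC. The ATAC-seq lists held 17303 (WT library 1), 66531 (WT library 2), 19174 (KO library 1), 72149 (KO library 2), 47214 (KO MycHet library 1) and 53722 (KO MycHet library 2) peaks. No read counts are given, so depth is unknown, and with 1 ChIP-seq library per genotype those comparisons have no replicate check and no test. Of 34 genes of HSC identity, 34 had an ATAC-seq peak in KO library 2 (all genes 75.6%) and 32 in WT library 2 (75.2%). In all 6 libraries 20 had one (48.1%). Other lineages had similar shares in WT library 2, with 22 of 23 erythroid and 19 of 20 megakaryocyte genes. These counts therefore cannot check the sorted cell type. A peak in a sorted population does not tell which share of its cells carried the mark.

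By the 1 kb rule, the members as a set had H3K27ac, H3K4me3 and MYC peaks in smaller shares than all genes. For H3K27ac in KO this did not hold in every setting. The share with ATAC-seq peaks depended on how many peaks of a list were used. An H3K27ac peak was present at 4 of 32 members in WT, when 24.7% of all genes had one, and at 14 of 32 in KO, when 50.1% had one. With 2.5 kb beyond the gene, the KO count was 16 of 32 against 51.8% of all genes. With peaks in or near another gene left out it was 13 of 32 against 37.7%, so the member share was then the larger. H3K4me3 marked 13 of 32 in either genotype, against 58.4% of all genes in WT and 59.7% in KO. MYC peaks lay at 3 of 32 members in WT (all genes 20.3%) and at 6 of 32 in KO (39.9%). The members are shorter than all genes, with a median of 9817 bp against 17329 bp, and the part of length in these shares was not tested. ATAC-seq peaks were found at 30 of 32 members in WT library 2 (75.2% of all genes) and 30 of 32 in KO library 2 (75.6%), at 27 and 24 in the KO MycHet libraries (71.3% and 72.2%), and at 12 and 6 in WT library 1 and KO library 1 (53.2% and 54.0%). With every ATAC-seq list held to its 17303 highest-scoring peaks, WT library 2, KO library 2 and KO MycHet libraries 1 and 2 had 11, 11, 9 and 9 members, against 56.5%, 54.0%, 55.5% and 54.9% of all genes. At a score of at least 100 they had 25, 28, 15 and 17 members, against 71.1%, 70.8%, 64.9% and 65.7%. The members were thus open in larger shares than all genes in the full lists of the second WT and KO libraries and of both KO MycHet libraries. Held to 17303 peaks, the same lists had members in smaller shares than all genes. At a score of at least 100, the member share was still larger in WT library 2 and KO library 2, and smaller in the KO MycHet libraries.

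**Figure D1:**
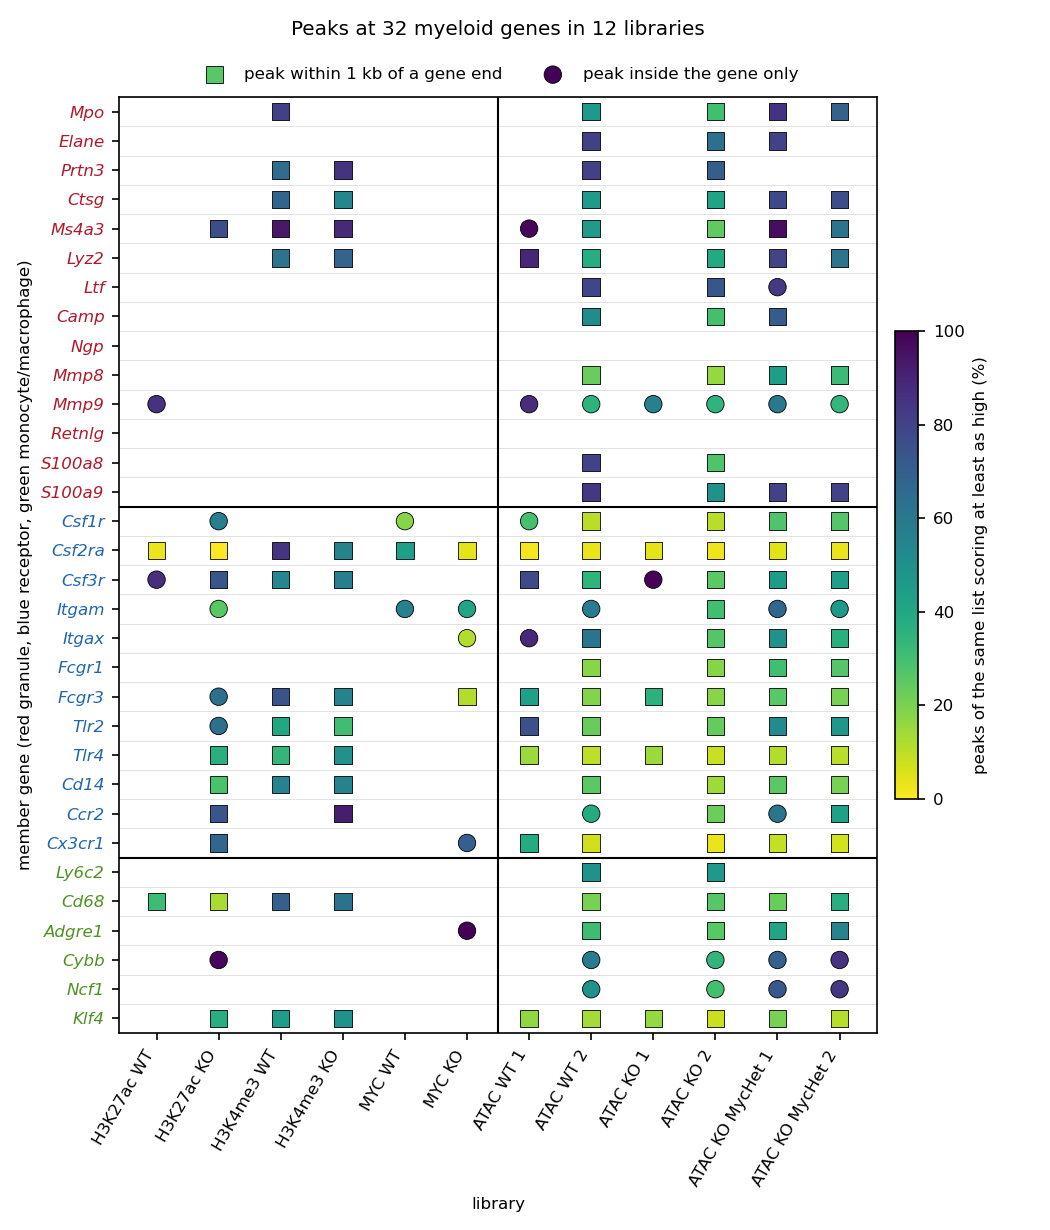
Peaks at the 32 myeloid genes (rows, ordered by group) in the 12 libraries (columns); squares are peaks within 1 kb of a gene end, circles are peaks inside the gene only, the colour gives the percent of peaks in the same list that score at least as high, and an empty cell means no peak. The 14 granule genes have 1 H3K27ac call in WT and 1 in KO, while the 12 receptor genes have 2 and 10 (2 and 4 for lists of equal length).

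The 3 groups differed in which assay reached them. Most members with H3K27ac in KO were receptors: 2 of 12 were marked in WT and 10 of 12 in KO, against 1 and 1 of 14 granule genes and 1 and 3 of 6 monocyte and macrophage genes. For H3K27ac lists held to equal length, the counts were 2 and 4 for receptors and 1 and 0 for granule genes. Monocyte and macrophage genes then had 1 and 2, and the shares of all genes were 24.7% and 37.7%. At a score of at least 100 receptors had 1 and 4, against 6.09% and 38.5% of all genes. The number of receptors in KO thus depended on the lower-scoring peaks of the longer list. All 12 receptors were open in WT library 2, KO library 2 and both KO MycHet libraries. Granule genes were open in 12, 12, 10 and 7 of 14 in those same 4 libraries, and none of the 14 had a MYC peak in either genotype. Gene length differs between the groups and moves with these counts, with medians of 3356.5 bp for granule genes, 16889 bp for receptors, 7457.5 bp for monocyte and macrophage genes and 17329 bp for all genes. Its part in the group differences was not tested.

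**Figure D2:**
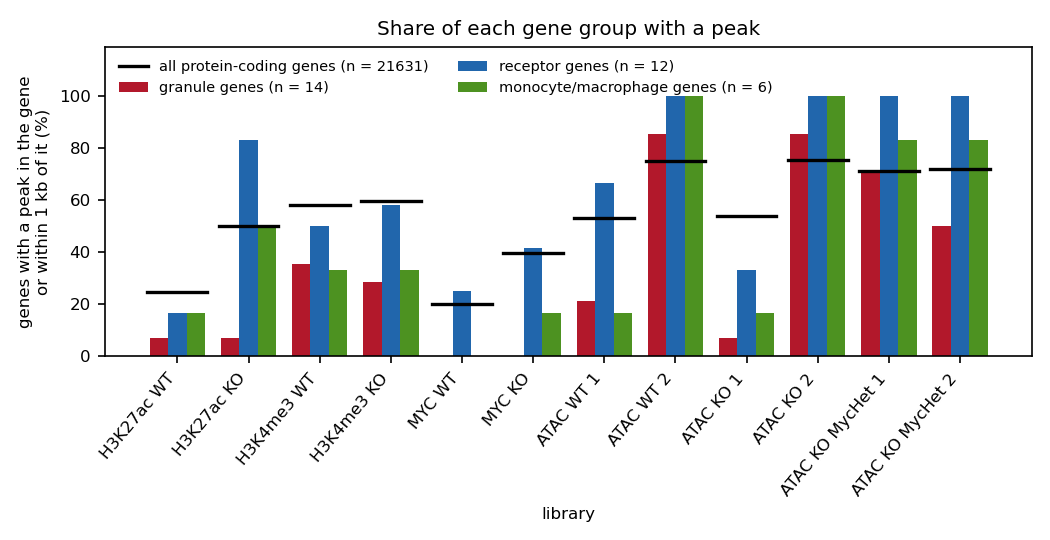
Share of genes (percent, y axis) with a peak in the gene or within 1 kb of it, for granule, receptor and monocyte/macrophage genes and all protein-coding genes, in each of the 12 libraries (x axis). Of the receptors, 2 of 12 had H3K27ac in WT and 10 of 12 in KO (2 and 4 for lists of equal length), while all protein-coding genes went from 24.7% to 50.1%.

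Among the primary granule genes, H3K4me3 was the mark most often present. Mpo encodes myeloperoxidase, the enzyme that makes hypochlorous acid. It carried in WT an H3K4me3 peak of 6672 bp from chr11:87793563-87800234 over its start and most of its body, with a score of 106.45, and no H3K4me3 peak in KO, where the nearest peak was 33543 bp away. Mpo was the single member with H3K4me3 in WT and not in KO, a class that held 1.67% of all genes. The WT peak was of low rank, since 80.9% of the peaks in its list scored as high or higher. Its start was nevertheless open in both genotypes, with ATAC-seq scores of 161.26 in WT library 2, 247.75 in KO library 2, 63.0 in KO MycHet library 1 and 84.26 in KO MycHet library 2, and no peak in WT library 1 or KO library 1.

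The neighbouring serine protease genes Prtn3 (proteinase 3) and Elane (neutrophil elastase) lie on chromosome 10. Prtn3 had H3K4me3 in both genotypes, over 2564 bp in WT (score 193.95) and 6218 bp in KO (score 83.6). Elane, whose lower end begins at position 79886312, had no H3K27ac, H3K4me3 or MYC peak within 1 kb, and the nearest H3K4me3 peaks were 3914 bp away in WT and 1582 bp in KO. ATAC-seq peaks at Elane scored 71.74 in WT library 2, 101.39 in KO library 2 and 68.53 in KO MycHet library 1. The WT peak lay between the 2 genes and was counted for both, and only the KO library 2 peak covered the Elane start printed above. Prtn3 had 71.74 and 87.95 in WT and KO library 2 and no peak in the other 4. Ctsg, for cathepsin G, another protease of the same granules, had H3K4me3 of 3147 bp in WT (178.14) and 4224 bp in KO (255.04). Its open chromatin scored 165.6, 172.86, 71.43 and 73.35 in WT library 2, KO library 2 and KO MycHet libraries 1 and 2. The 73.35 peak lay at the lower end, away from the start that the others covered.

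Ms4a3 was the single granule-group gene with H3K27ac in KO and not in WT. It encodes a membrane protein of granulocyte and monocyte progenitors and is used as a marker of them, although it is no granule protein. The H3K27ac peak covered 2710 bp at its start (score 64.75), and H3K4me3 there covered 2372 bp in WT (63.32) and 7609 bp in KO (74.84). ATAC-seq peaks at the Ms4a3 start scored 117.14 in WT library 2, 306.73 in KO library 2, and 52.4 and 53.5 in the KO MycHet libraries. A region inside the gene scored 50.97 and 167.41 in the WT libraries, 118.55 in KO library 2 and 97.06 in KO MycHet library 2. KO library 1 had no peak. Lyz2, for lysozyme M, made by neutrophils and macrophages, had H3K4me3 of 1243 bp in WT (216.23) and 1687 bp in KO (154.7) and no H3K27ac in either. It was open in 5 of 6 libraries, at 56.28 and 207.56 in WT, 184.64 in KO library 2, and 68.94 and 98.48 in KO MycHet.

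The genes of later granules and of cytosolic neutrophil proteins carried no H3K4me3 and no MYC peak in either genotype. These are Ltf (lactoferrin, an iron-binding protein), Camp (the cathelicidin antimicrobial peptide), Ngp (neutrophilic granule protein), the collagenase Mmp8, the gelatinase Mmp9, Retnlg (a resistin-like secreted protein) and the calcium-binding pair S100a8 and S100a9. Mmp9 alone of these 8 had H3K27ac, a peak of 285 bp inside the gene in WT with a score of 53.59, and it was the single member with H3K27ac in WT and not in KO (2.76% of all genes). Mmp9 was also the single granule gene with an ATAC-seq peak in all 6 libraries, at 57.55 and 227.43 in the WT libraries, 79.31 and 211.24 in the KO libraries, and 103.2 and 204.41 in the KO MycHet libraries. S100a8 and S100a9 were open in WT library 2 (72.16 and 67.64) and KO library 2 (272.6 and 139.02). The S100a9 peak of 139.02 covered the start, and the one of 67.64 lay at the lower end, away from the start. At that lower end KO library 2 scored 63.46 and the KO MycHet libraries 68.42 and 68.41. S100a8 had no peak in the KO MycHet libraries. Mmp8 scored highest of the 8 in WT library 2 and KO library 2, at 368.36 and 457.45, and 147.86 and 221.06 in KO MycHet. Ltf and Camp had a peak in WT library 2, KO library 2 and KO MycHet library 1, at 65.55 to 249.81, and none in the other 3.

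Ngp and Retnlg had no peak in any of the 12 libraries. The ATAC-seq peak nearest to Ngp was 7889 bp away, in KO library 2, and those nearest to Retnlg were 3472 bp away in WT library 2 and 3571 bp in KO library 2. Of all protein-coding genes, 22.4% had no ATAC-seq peak in any of the 6 libraries, against 2 of 32 members. Both are genes of mature neutrophils, and both promoters printed above hold the C/EBP letters.

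Of the receptors for colony-stimulating factors, Csf2ra had peaks in the most libraries and Csf1r in the fewest. Csf2ra, the alpha chain of the receptor for granulocyte-macrophage colony-stimulating factor, was the single member with peaks in all 12 libraries. Its H3K27ac covered 1908 bp in 2 peaks in WT (best score 185.87) and 3103 bp in 1 peak in KO (718.22), and the KO peak at chr19:61225405-61228507 was among the highest 0.344% of its list by score (the WT peak, the highest 2.99%). H3K4me3 went from 2051 to 3067 bp (90.49 and 242.52) and MYC from 431 to 2029 bp (72.82 and 220.74). ATAC-seq scores at its start were 413.11 and 1107.16 in the WT libraries, 288.42 and 1101.96 in the KO libraries, and 745.52 and 873.61 in the KO MycHet libraries. By score within its own list, the peak was among the highest 1.49% and 3.4% in the WT libraries, 4.02% and 2.53% in the KO libraries, and 4.59% and 3.49% in the KO MycHet libraries.

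Csf3r, the receptor for granulocyte colony-stimulating factor, had H3K27ac in both genotypes but at different places. The WT peak was 375 bp long, inside the gene with its midpoint 3530 bp past the start site (score 53.4), and the KO peak was 1391 bp long and covered the start (68.33). H3K4me3 covered the start in both, over 2602 bp in WT (270.9) and 4338 bp in KO (225.06). Csf3r was open in all 6 libraries, at 64.5 and 228.94 in the WT libraries, 50.57 and 298.73 in the KO libraries, and 145.31 and 149.22 in the KO MycHet libraries. The peak in KO library 1 was near the lowest score, since 99.0% of its list scored as high or higher. With equal numbers of peaks, Csf3r had no peak in KO library 1. Csf1r, the receptor for macrophage colony-stimulating factor, had no H3K4me3 peak in either genotype, and its H3K27ac and MYC peaks lay inside the gene. Its H3K27ac peak in KO (1141 bp, score 90.08) and its MYC peak in WT (665 bp, 109.84) overlapped each other, 2633 and 2967 bp from the lower end, and overlapped ATAC-seq peaks of every library but KO library 1. The ATAC-seq scores at Csf1r were 140.15 and 699.34 in WT, 614.47 in KO library 2, and 256.98 and 266.93 in KO MycHet. ATAC-seq peaks at its upper end also lay at an end of the neighbouring gene Hmgxb3.

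The integrin chains Itgam (CD11b) and Itgax (CD11c), used by myeloid cells for adhesion and uptake, had no H3K4me3 peak. Itgam had 3 H3K27ac peaks inside the gene in KO, at 3072, 20458 and 26880 bp past its start with scores of 91.31, 68.91 and 188.25, and none in WT. MYC was called at Itgam in both genotypes at different peaks, 3181 bp past the start in WT (64.45) and 20392 bp past it in KO (81.2), and each lay within an H3K27ac peak of KO. Itgax had 1 MYC peak in KO, 249 bp long and 2436 bp past the start (146.07), that overlapped no peak of any other list. ATAC-seq peaks at Itgam were found in WT library 2 (118.1), KO library 2 (248.84) and both KO MycHet libraries (88.61 and 140.93). The 118.1 peak lay in another region than the other peaks, whose region scored 94.15 in WT library 2. Itgax had peaks in the same 4 libraries (109.37, 281.54, 132.0 and 189.21) and in WT library 1 (56.72). The WT scores at Itgax were from a region inside the gene and the others from its start, where WT library 2 scored 108.67.

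The Fc receptors bind antibody on coated targets. Fcgr1, the high-affinity receptor, had no ChIP-seq peak, yet its start was open at 466.81 in WT library 2, 406.02 in KO library 2, and 233.05 and 264.46 in KO MycHet. Fcgr3, a low-affinity receptor, had in the KO lists alone a MYC peak of 1384 bp at its upper end (146.66), an H3K27ac peak of 1516 bp inside the gene (79.97), and a second H3K4me3 peak inside the gene beside the one at the upper end that both genotypes had (136.68 in WT, 237.93 in KO). Its open chromatin was called in all 6 libraries, at 106.01 and 448.65 in the WT libraries, 109.52 and 413.45 in the KO libraries, and 272.68 and 346.92 in the KO MycHet libraries. The MYC peak lay at that open upper end, and the H3K27ac peak overlapped no ATAC-seq peak.

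The receptors for microbial products were alike in the 2 histone marks. Tlr2, which recognises bacterial lipoproteins, Tlr4, which recognises lipopolysaccharide, and Cd14, the co-receptor that hands lipopolysaccharide to Tlr4, each had H3K4me3 in both genotypes, H3K27ac in KO and not in WT, and no MYC peak. The H3K27ac scores in KO were 79.8 for Tlr2 (961 bp), 143.4 for Tlr4 (2230 bp) and 176.42 for Cd14 (2200 bp). H3K4me3 scores were 357.68 in WT and 422.36 in KO for Tlr2, 400.15 and 284.79 for Tlr4, and 262.67 and 240.12 for Cd14. The length covered by H3K4me3 was larger in KO at each of the 3. Tlr4 was open in all 6 libraries, at 203.98 and 701.09 in the WT libraries, 182.89 and 688.71 in the KO libraries, and 501.47 and 558.92 in the KO MycHet libraries. Tlr2 was open at 65.82 and 356.79 in the WT libraries, 318.61 in KO library 2 and 121.21 and 139.61 in the KO MycHet libraries, and lacked a peak in KO library 1. Cd14 was open in the 4 longer lists, at 326.92 in WT library 2, 499.71 in KO library 2 and 277.48 and 341.74 in the KO MycHet libraries.

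The chemokine receptors Ccr2, by which monocytes leave the marrow, and Cx3cr1, a receptor of patrolling monocytes and tissue macrophages, had no ChIP-seq peak in WT. In KO, Ccr2 had H3K27ac (1980 bp, score 67.34) and H3K4me3 (4443 bp, 65.07) at its lower end. It was the single member with H3K4me3 in KO and not in WT, a class of 3.02% of all genes, and its nearest WT peak was 147153 bp away. Cx3cr1 had 2 H3K27ac peaks in KO (75.14 and 68.63), and a MYC peak (601 bp, 60.63) within the second of these, 13334 bp past the start. Cx3cr1 was among the most open members, at 116.92 and 831.47 in WT, 1024.65 in KO library 2, and 576.04 and 691.02 in KO MycHet, with no peak in KO library 1. Ccr2 was open in the 4 longer lists, at 202.2, 332.89, 99.19 and 154.37 in WT library 2, KO library 2 and KO MycHet libraries 1 and 2.

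Of the 6 monocyte and macrophage genes, Klf4 had H3K4me3 over its start in both genotypes. Cd68 was counted in both through peaks outside the gene. Klf4, a transcription factor needed for monocyte differentiation, had H3K4me3 of 5422 bp in WT (330.44) and 4719 bp in KO (290.98), and an H3K27ac peak of 775 bp in KO (139.82), upstream of its start. It was open in all 6 libraries, at 195.4 and 587.49 in the WT libraries, 175.43 and 700.29 in the KO libraries, and 336.57 and 544.51 in the KO MycHet libraries. Cd68, a lysosomal glycoprotein of macrophages, had H3K27ac of 553 bp in WT (78.55) and 2550 bp in KO (283.15), and H3K4me3 of 2097 and 3405 bp (161.45 and 188.41). All 4 of these Cd68 peaks lay beyond the end away from its start, 369 to 875 bp outside the gene. They also lay at an end of the neighbouring gene Mpdu1, so they cannot be assigned to Cd68 alone. Cd68 had neither mark when the peak midpoint had to lie in the window or peaks near another gene were left out. Open chromatin at the Cd68 start scored 239.91 in WT library 2, 288.17 in KO library 2, and 134.44 and 183.22 in the KO MycHet libraries, and this region also lay at an end of Eif4a1. A separate open region at the lower end, shared with Mpdu1, was called in WT library 2 (407.38) and KO MycHet library 1 (307.72).

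Cybb and Ncf1 encode subunits of the NADPH oxidase that makes superoxide, Adgre1 encodes the macrophage antigen F4/80, and Ly6c2 encodes Ly6C of inflammatory monocytes. None of the 4 had H3K4me3. Cybb had an H3K27ac peak of 359 bp in KO, 9069 bp past the start, with a score of 50.97, and Adgre1 had a MYC peak of 329 bp in KO, 117994 bp from its lower end, with a score of 50.12. Both scores lie just above the lowest score in the lists, 50. Cybb was open at 117.06 in WT library 2, 213.15 in KO library 2, and 85.81 and 62.12 in the KO MycHet libraries, at places that differed. In a region these libraries shared, the scores were 97.94, 213.15, 85.81 and 54.94. Adgre1 was open at 261.59, 292.91, 162.41 and 113.52 in the same 4. Ncf1 was open in these 4 as well (64.35 to 252.03), and Ly6c2 in WT library 2 and KO library 2 alone (149.41 and 151.66).

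H3K27ac was found in KO and not in WT at 11 members (28.1% of all genes): Ms4a3, Csf1r, Itgam, Fcgr3, Tlr2, Tlr4, Cd14, Ccr2, Cx3cr1, Cybb and Klf4. Counting peaks within 1 kb of an end alone gave 2 members in WT and 9 in KO, against 14.6% and 39.6% of all genes. The 17 H3K27ac peaks at members in KO had a median width of 1445 bp, and the 5 in WT one of 518 bp, against 1237 and 333 bp in the whole lists. Of the 17, 15 overlapped an ATAC-seq peak of WT library 2, 15 one of KO library 2, 7 one of WT library 1 and 5 one of KO library 1. Over the whole KO list the shares were 80.2%, 79.7%, 49.3% and 50.3%, so the overlap with the second libraries was near that of H3K27ac peaks in general. Of the 17, 2 overlapped an H3K27ac peak of WT. The KO list was also longer and its peaks wider over the whole genome. When both lists were held to their 10078 highest-scoring peaks, 4 members had H3K27ac in WT (24.7% of all genes) and 6 in KO (37.7%): Csf2ra, Itgam, Tlr4, Cd14, Cd68 and Klf4.

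**Figure D3:**
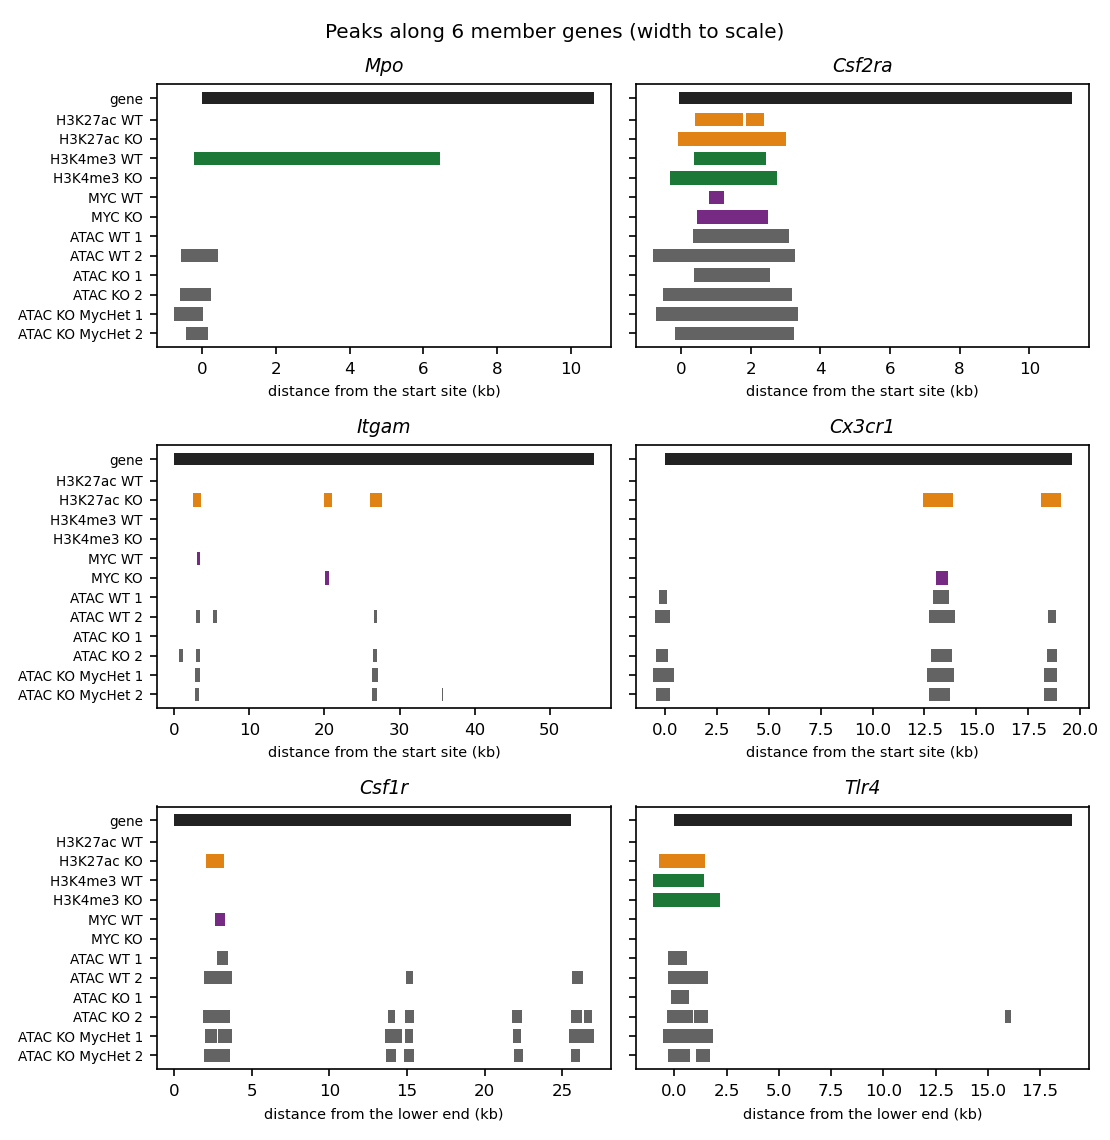
Peaks of the 12 libraries (rows) along 6 members, drawn to scale as bars over distance from the gene's start site or, for Csf1r and Tlr4, its lower end (kb, x axis); the black bar is the gene. At Csf2ra all 12 libraries have a peak near the start, while at Itgam the MYC bars of WT and KO lie at 3181 and 20392 bp past the start.

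H3K4me3 gave nearly the same members in both genotypes and wider peaks in KO. It was present in both at 12 members, and every one of the 13 genes counted in a genotype had its peak at an end (52.9% of all genes in WT, 54.3% in KO). Covered length was larger in KO at 11 of those 12, with Klf4 as the exception. The ratio of KO to WT covered length had a median of 1.43 over the 12 and ran from 0.87 at Klf4 to 3.21 at Ms4a3, and the ratio of the 2 lists' median widths was 1.19. The scores come from lists whose scales may differ, and no direction between genotypes is read from them.

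**Figure D4:**
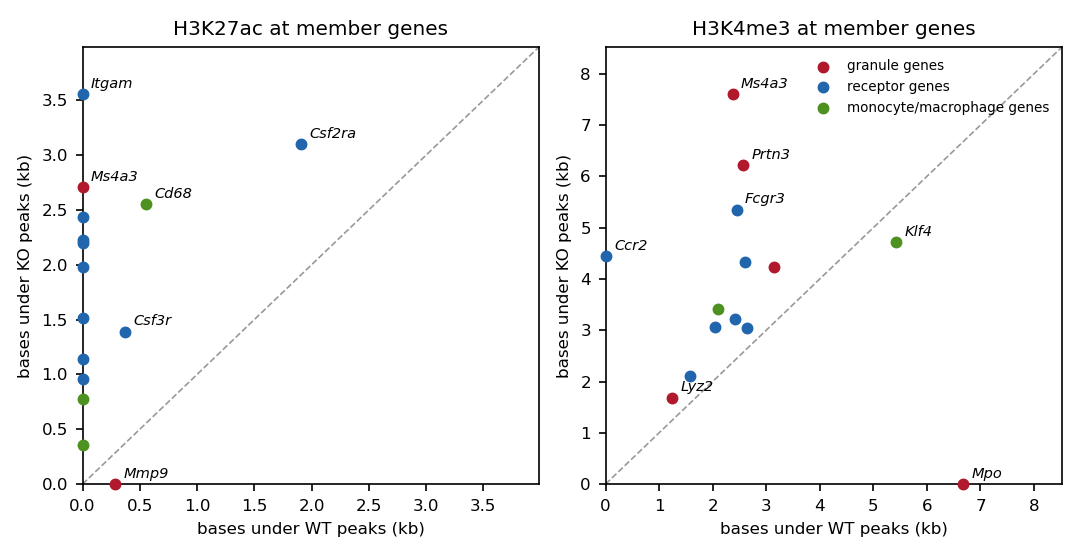
Length covered by peaks at each member (kb) in WT (x axis) and KO (y axis), for H3K27ac (left) and H3K4me3 (right); each point is a gene with a peak in either genotype, coloured by group, points on an axis have a peak in 1 genotype, and the dashed line marks equal length. Of the 12 members with H3K4me3 in both genotypes, 11 lie above the line and Klf4 below it.

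MYC was called at few of the members, unlike at the myeloid regulators described below. It was called in both genotypes at Csf2ra and Itgam, in WT and not KO at Csf1r (all genes 3.92%), and in KO and not WT at Itgax, Fcgr3, Cx3cr1 and Adgre1 (all genes 23.6%). Within 1 kb of an end, MYC was found at Csf2ra in WT (10.3% of all genes) and at Csf2ra and Fcgr3 in KO (22.3%). Of the 6 KO peaks, those at Csf2ra, Fcgr3 and Cx3cr1 overlapped open chromatin of KO library 2, and those at Itgam, Itgax and Adgre1 overlapped no ATAC-seq peak. Over the whole KO list, 40.3% of MYC peaks overlapped a peak of KO library 2, so sites outside open chromatin are not particular to these genes. With both lists held to 8774 peaks, MYC was called at 3 members in each genotype, Csf1r, Csf2ra and Itgam in WT and Csf2ra, Itgax and Fcgr3 in KO, and at 20.3% and 21.7% of all genes.

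Open chromatin at the members differed more between the 2 libraries of WT, and of KO, than between the means of the genotypes. ATAC-seq peaks were present in both WT libraries at 12 members (53.1% of all genes), in both KO libraries at 6 (53.9%) and in both KO MycHet libraries at 24 (69.7%). They were present in all 6 at Mmp9, Csf2ra, Csf3r, Fcgr3, Tlr4 and Klf4 (48.1% of all genes). No member was open in both libraries of a genotype and in neither of another, for KO against WT or KO MycHet against KO in either direction. These classes hold almost no genes of any kind: 0.0370% of all genes were open in both KO and neither WT library, 0.0139% in the reverse class, 0.153% in both KO MycHet and neither KO library, and 0.0693% in its reverse, so the absence of members says nothing about them. The mean number of open members per library was 18.0 for KO against 21.0 for WT, a difference of -3.0 (2 against 2 libraries, two-sided exact permutation test, p = 1.0), and 25.5 in KO MycHet, a difference from KO of 7.5 (exact permutation test, p = 1.0). The counts behind the last difference were 27 and 24 for KO MycHet and 6 and 30 for KO, so neither KO MycHet library exceeded KO library 2, and without KO library 1 the difference was -4.5. It was 0.0 at a score of at least 100 and 1.0 for lists of equal length. The smallest p this design can give is 0.333, and the labels do not say whether the libraries came from separate mice, so the spread between them may be technical.

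The first WT and KO libraries, with the shortest lists, differed at 6 members. Ms4a3, Lyz2, Csf1r, Itgax, Tlr2 and Cx3cr1 were open in WT library 1 and not in KO library 1, with scores in WT of 50.97, 56.28, 140.15, 56.72, 65.82 and 116.92, and no member was open in the reverse way. The WT peaks at Ms4a3, Lyz2 and Itgax were of low rank. In that list 98.4%, 89.4% and 88.8% of peaks scored as high or higher. Over all 21631 protein-coding genes the counts were 1094 and 1265, with the KO list the longer. In the second libraries all 6 of these genes had peaks in both genotypes. This is a difference between 2 libraries and not a test of the genotypes.

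Merged over libraries, the ATAC-seq peaks at members made 61 regions, 33 of them within 1 kb of an end and 28 inside. WT library 2 had 49 of these and KO library 2 had 55, with 45 in common. All 14 regions of WT library 1 were among those of WT library 2, and all 6 of KO library 1 among those of KO library 2. Open members within 1 kb of an end numbered 25 in WT library 2 and 27 in KO library 2, when 66.1% and 65.7% of all genes were open there. Of the 10 regions in KO library 2 and not WT library 2, at Elane, Ms4a3, Ltf, S100a9, Csf1r (2 regions), Itgam, Tlr4, Ccr2 and Cybb, 4 were found again in a KO MycHet library. The 4 in WT library 2 and not KO library 2 were at Ctsg, Mmp9, Itgam and Cd68. The region counts are not set beside counts over all genes, so they do not tell whether the members differ from other genes.

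Transcription factors of the lineage had H3K27ac, H3K4me3 and MYC peaks in larger shares than the members did. Of 35 myeloid regulators, 17 had H3K27ac in WT and 27 in KO, 30 and 29 had H3K4me3, and 15 and 17 had MYC. The shares of all genes were 24.7% and 50.1%, 58.4% and 59.7%, and 20.3% and 39.9%. Of the regulators, 26 were open in all 6 ATAC-seq libraries, against 48.1% of all genes. H3K27ac was in KO and not in WT at 11 of 35 regulators (28.1% of all genes) and in WT and not in KO at 1 (2.76%). For MYC these classes held 5 (23.6%) and 3 (3.92%). Among the 11 with H3K27ac in KO alone, the highest scores were at Cebpg (220.64), Cebpb (155.67), Stat5a (139.43) and Hif1a (92.02). Among the 5 with MYC in KO alone they were at Nfkb1 (106.09) and Bhlhe40 (97.07). H3K4me3 was found in 1 genotype alone at 3 regulators, Gfi1 and Myb in WT (1.67% of all genes) and Zeb2 in KO (3.02%). Spi1, Runx1 and Stat3 had H3K27ac in both genotypes. Of 52 further myeloid genes, 11 had H3K27ac in WT and 31 in KO, 20 and 26 had H3K4me3, and 5 and 16 had MYC.

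Genes of other lineages also had more H3K27ac calls in the KO list than in the WT list. The number went from 1 to 6 of 23 erythroid genes and from 3 to 11 of 20 megakaryocyte genes. It went from 1 to 9 of 22 early B cell genes and from 15 to 26 of 34 HSC identity genes. Myeloid members went from 4 to 14 of 32, and all protein-coding genes from 24.7% to 50.1%. MYC calls went from 3 to 12 of the erythroid genes and from 1 to 7 of the early B cell genes. They were 8 and 8 of the megakaryocyte genes, and went from 20.3% to 39.9% of all protein-coding genes. With lists of equal length, H3K27ac was at 4 members in WT and 6 in KO, and at 24.7% and 37.7% of all genes. MYC was then at 20.3% and 21.7% of all genes. For the other lineages such counts are not given here. Whether the share of other cells in the sort or depth had a part in these counts was not tested.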

How the data were processed

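Peak lists of 12 libraries were used. Each deposited list holds a chromosome, start, end, peak name of the MACS form and a score, called per library by the authors. The scale of the score is not stated, no score is below 50, and scores were used within a list to describe or rank peaks. Applying a score minimum of 100 to all lists takes their scale to be the same, which was not checked. The build was mm10 and CASAVA the tool named, per the submitters' processing notes. Which aligner, peak caller settings, input control or ATAC-seq read shift was used is not given in the sources used here. No counts come with the lists, so depth is unknown, and list length may differ through depth alone.

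Genes were taken from a RefSeq table of GRCm38.p6 (21631 protein-coding genes on chromosomes 1 to 19 and X), which gives no strand; "lower" and "upper" name the ends with the smaller and larger coordinate. Start sites and strands of 27 of the 32 members came from the RefSeq promoter table. A gene was called when a peak overlapped it or the 1 kb beyond either end by at least 1 bp. A percent of all genes is the share called by the same rule. With 1 ChIP-seq library per genotype there was no test, and ATAC-seq counts per library were compared by an exact permutation test. Alternatives were ends only, 2.5 kb, the peak midpoint in the window, peaks in or near another gene left out, a score of at least 100, equal numbers of peaks (the highest-scoring 10078, 15089, 8774 and 17303 for H3K27ac, H3K4me3, MYC and ATAC-seq), and leaving out a library.

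The members and lists were chosen with earlier results of these data known. Values are given in full for members with a ChIP-seq peak. Ranges or counts serve for some others, and 6 regulators are named by the highest H3K27ac or MYC scores found in 1 genotype, over lists without a stated common scale. Values of members without a ChIP-seq peak that are named singly, the regulators with H3K27ac in both genotypes or H3K4me3 in 1, and the 6 printed promoters were chosen after their values were seen. Scripts ran in Python 3.11.15 with pandas 2.3.3 and numpy 2.4.6, were tested on simulated data and checked against bedtools 2.31.1.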

Additional observations from a re-analysis of the deposited data

How the results depend on the processing

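H3K4me3 counts stayed within 1.5 times of 13 in WT and 13 in KO under every alternative run. H3K27ac stayed at more members in KO than in WT in each of them. Members numbered 2 in WT and 9 in KO at ends only, and 1 and 6 at a score of at least 100. With equal numbers of peaks they were 4 and 6. The share of all genes rose as well in these settings, from 14.6% to 39.6%, from 6.09% to 38.5% and from 24.7% to 37.7%. MYC was at 1 member in WT and 2 in KO at ends only, at 1 and 3 at a score of at least 100, at 5 in WT with 2.5 kb, and at 3 in KO with equal numbers of peaks, the same number as in WT. ATAC-seq peaks in both WT libraries were at 6 members at a score of at least 100 and at 7 with equal numbers, and in both KO MycHet libraries at 15 and 8. Leaving out 1 ATAC-seq library gave 12 to 30 members for WT (30 without WT library 1), 6 to 30 for KO (30 without KO library 1) and 24 to 27 for KO MycHet. The KO minus WT difference of -3.0 open members per library became 0.5 at a score of at least 100, and ran from -15.0 to 9.0 when 1 library was left out, with 6.0 without WT library 2 and 9.0 without KO library 1. The KO MycHet minus KO difference of 7.5 ran from -4.5 (without KO library 1) to 19.5 and was 0.0 at a score of at least 100 and 1.0 with equal numbers of peaks, so it depended on these settings as well as on KO library 1. Apart from list length and the number of libraries, which the alternatives set, the cause was not tested. No paired analysis was possible because the ATAC-seq labels give a replicate number only to the second library of each genotype and ChIP-seq had 1 library per genotype.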
